A study of Mus musculus with 3 samples.

Results

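The genes described here are 7 Toll-like receptor genes (Tlr1, Tlr2, Tlr3, Tlr4, Tlr6, Tlr7 and Tlr9), the related receptor gene Cd180, its partner Ly86 and the adaptor gene Myd88. They were chosen by the gene name in the array annotation: 9 of the 10 names were found, on 14 of the 44170 transcripts, among 24171 gene symbols in all. No transcript in the files used here carries the name Tlr9, so that gene is not analysed here. Total RNA came from B cells, natural killer (NK) cells and natural killer B (NKB) cells, the last being the name in the sample titles for a splenic population profiled alongside the other 2. The donors were wild-type (WT) C57/BL6 mice of 8 weeks kept under specific-pathogen-free conditions, with no treatment named, and the RNA of each population went onto 1 single-colour NimbleGen array. Neither the sort gate nor the number of animals behind each RNA is stated, and the protocol text shared by the samples speaks of sorting long-term stem cells.

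Toll-like receptors are membrane proteins that recognise conserved microbial molecules and signal through a shared cytoplasmic domain. Tlr1 and Tlr6 each pair with Tlr2 at the cell surface to bind bacterial lipopeptides, Tlr4 with Ly96 (MD-2) binds lipopolysaccharide, and Tlr3, Tlr7 and Tlr9 sense nucleic acids in endosomes. Cd180 (RP105) resembles Tlr4 outside the cell but lacks the signalling domain. It is carried to the surface of B cells together with Ly86 (MD-1), a small secreted relative of MD-2. Myd88 is the adaptor used by every one of these Toll-like receptors except Tlr3.

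Each transcript had 1 intensity per array, a summary of 3 probes made by the authors, and brightness is compared only within a probe set, since probes differ in how brightly they bind. Where a gene had several probe sets, their log2 intensities were averaged. The detection level of an array was the 95th percentile of 924 odorant and pheromone (vomeronasal) receptor genes, taken as silent in spleen, which came to 149 for B, 137 for NK and 135 for NKB. A value under the level was set to it, so a fold against such a value is given as "at least". A gene was called higher or lower at a difference of 2-fold. With 1 array per population there are no replicates and no test, and precision is limited by that number of arrays. The same rule called 1.62% of the odorant and pheromone receptor genes in either direction for NK against B, 1.41% for NKB against B and 2.27% for NKB against NK. The level was set from these same genes, so these shares are low by construction and do not measure noise. Without a level, 14.0%, 20.9% and 21.0% of them differed 2-fold in the same comparisons.

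The labels were compared with 8 lists of cell type markers. The B array was above its level for 10 of 10 B cell markers, the NK array for 1 and the NKB array for 10, and the intensities of the list summed to 27448, 784 and 27141. For NK cell markers the counts were 1, 10 and 7 of 10 and the sums 667, 28793 and 5766, with 9 of the 10 lower in NKB than in NK and 1, Gzma, higher in NKB than in B. Monocyte and macrophage markers were detected for 1 of 14 on B, 9 of 14 on NK and 11 of 14 on NKB, and their intensities summed to 1116, 8518 and 8697. In that list Cd14, Fcgr1 and Slc40a1 were under the level on all 3 arrays. Macrophages carry several Toll-like receptors as well as Ly86, and the part of their RNA in the values below was not tested. Dendritic cell markers were detected for 0, 1 and 0 of 6 in the order B, NK and NKB, plasmacytoid dendritic cell markers for 3, 1 and 3 of 7, and neutrophil markers for 0, 1 and 0 of 8. T cell markers were detected for 3, 4 and 4 of 7, with sums of 948, 4566 and 1445. Erythroid markers were detected for 3, 4 and 3 of 7, with sums of 1303, 5956 and 9489, of which Hbb-b1 made up 252, 2083 and 5583. The part of these cells in the results was not tested. In sorted populations measured in bulk, fewer cells of a type and less RNA per cell cannot be told apart.

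The promoters of the 4 members that set the populations apart are shown because both Tlr1 and Tlr6 were lower in NKB than in B. In that comparison Cd180 and its partner Ly86 differed from each other. RefSeq sequences (build GRCm38.p6) were at hand for 7 of the 9 members, each running from 250 bases before to 50 bases after a transcript start, and of several starts the most upstream is printed 5′ to 3′. Capitals mark matches on either strand to any of 4 motifs: GAGGAA (the core bound by the factor PU.1), the octamer ATGCAAAT, TATAAA and the E-box CAGCTG.
Cd180, chr13:102693297-102693596, plus strand: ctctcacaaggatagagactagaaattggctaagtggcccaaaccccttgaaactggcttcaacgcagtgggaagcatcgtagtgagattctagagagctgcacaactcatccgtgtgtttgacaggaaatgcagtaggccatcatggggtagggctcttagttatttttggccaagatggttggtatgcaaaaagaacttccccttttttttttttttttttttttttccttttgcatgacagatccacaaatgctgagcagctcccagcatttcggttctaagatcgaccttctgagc
Ly86, chr13:37345095-37345394, plus strand: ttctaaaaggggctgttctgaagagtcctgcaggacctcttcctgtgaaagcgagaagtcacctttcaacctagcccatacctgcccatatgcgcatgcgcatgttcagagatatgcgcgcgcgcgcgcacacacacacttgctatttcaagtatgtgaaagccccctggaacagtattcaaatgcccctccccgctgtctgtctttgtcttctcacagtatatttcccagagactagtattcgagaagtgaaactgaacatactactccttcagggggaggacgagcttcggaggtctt
Tlr1, chr5:64933509-64933808, minus strand: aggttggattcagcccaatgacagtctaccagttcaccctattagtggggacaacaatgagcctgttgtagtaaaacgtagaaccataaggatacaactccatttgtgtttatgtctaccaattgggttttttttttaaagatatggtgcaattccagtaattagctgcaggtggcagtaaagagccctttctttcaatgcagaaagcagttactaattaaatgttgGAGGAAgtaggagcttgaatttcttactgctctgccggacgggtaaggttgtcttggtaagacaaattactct
Tlr6, chr5:64959999-64960298, minus strand: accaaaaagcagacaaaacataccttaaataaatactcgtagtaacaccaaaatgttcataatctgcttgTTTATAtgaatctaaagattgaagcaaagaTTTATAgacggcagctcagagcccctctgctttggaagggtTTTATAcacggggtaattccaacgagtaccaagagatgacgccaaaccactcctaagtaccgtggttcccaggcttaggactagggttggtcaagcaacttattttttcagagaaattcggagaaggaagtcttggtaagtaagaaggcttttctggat
The Tlr1 window held 1 GAGGAA, beginning 23 bases before the start, a motif present in 28.3% of 32817 promoters of this length. The Tlr6 window held 3 TATAAA matches on the opposite strand, a motif found in 13.6% of promoters. None of the 4 motifs was in the Cd180 or Ly86 window. ATGCAAAT and CAGCTG, found in 1.74% and 16.3% of promoters, were in none of the 4 windows. A match here describes letters only.

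B cells were the population in which most members were bright. On the B array 6 of the 9 members were above the detection level, against 2 on NK and 4 on NKB. Of all 24171 genes, 5650 were above the level on B, 6075 on NK and 6033 on NKB. Tlr1, Tlr2, Tlr6, Cd180, Ly86 and Myd88 were detected on B, Ly86 and Myd88 on NK, and Tlr6, Cd180, Ly86 and Myd88 on NKB. Myd88 and Ly86 were thus the members detected on all 3 arrays, while Tlr3, Tlr4 and Tlr7 were under the level on each.

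**Figure D1:**
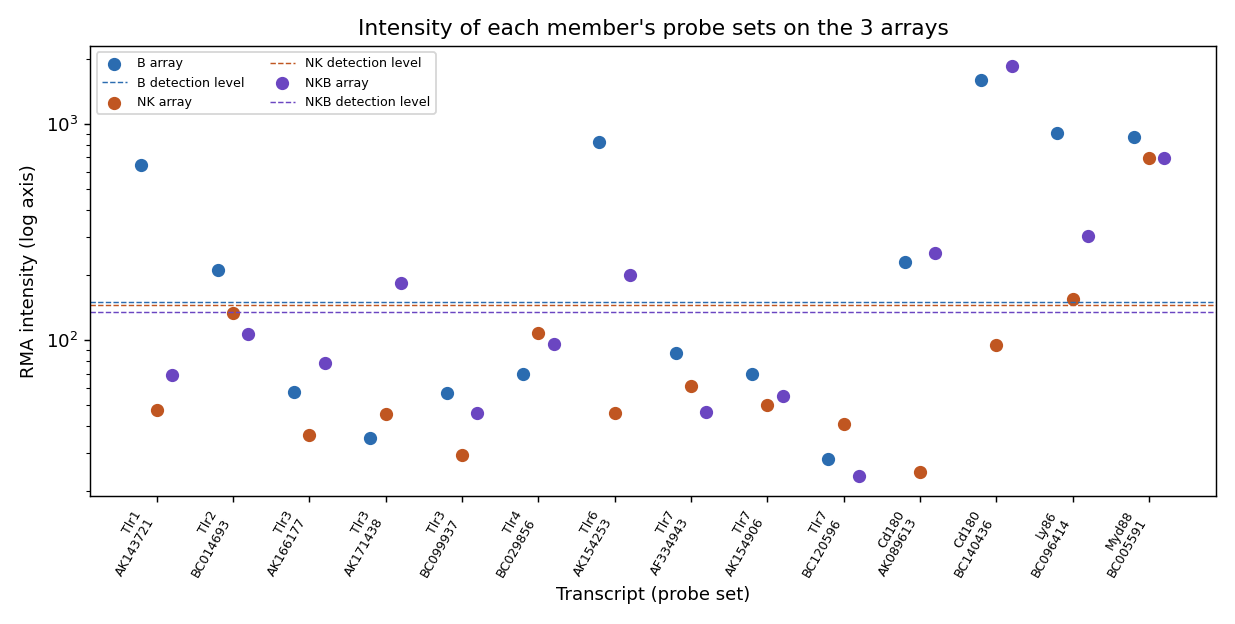
RMA intensity (log axis) of the 14 transcripts of the 9 members, 1 point per array, with each array's detection level for single probe sets as a dashed line (150 for B, 145 for NK and 135 for NKB). The B points of Tlr1, Tlr6 and Ly86 stand above both other arrays, and for both Cd180 transcripts the B and NKB points lie together, well above NK.

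Among the receptors that pair with Tlr2, Tlr1 and Tlr6 were bright in B cells and dim elsewhere. The Tlr1 transcript AK143721 (MM9, chr5:65316072-65324799) read 641 on B, 47.7 on NK and 69.3 on NKB. Only B was above its level, so Tlr1 was at least 4.68-fold lower in NK than in B and at least 4.74-fold lower in NKB than in B. The Tlr6 transcript AK154253 (MM9, chr5:65344333-65351287) read 825 on B, 46.2 on NK and 199 on NKB. Tlr6 was at least 6.02-fold lower in NK than in B and 4.14-fold lower in NKB than in B. On NKB it was at least 1.45-fold above NK, which is short of the threshold, and with the level at the 99th percentile both arrays were under it. Tlr1 and Tlr6 are neighbours, with 19533 bases between their transcripts, and close relatives in sequence, so how far each probe set reads its own gene alone is uncertain.

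Tlr2 itself, the shared partner of both, was detected on the B array alone. Its transcript BC014693 (MM9, chr3:83640193-83645689) read 211 on B, 134 on NK and 106 on NKB, with the last 2 under their levels. The difference from B was at least 1.54-fold for NK and at least 1.56-fold for NKB, both under the threshold, and with B at 211 these are the largest bounds the levels allow.

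Cd180 was bright on both the B and the NKB array and dim on NK, and its 2 probe sets showed the same order. Transcript BC140436 (MM9, chr13:103483779-103496511) read 1591 on B, 94.9 on NK and 1841 on NKB. Transcript AK089613 (MM9, chr13:103483637-103494342) read 229 on B, 24.7 on NK and 252 on NKB. In both, NK was under the level and B and NKB were above it. Averaged over the 2, Cd180 in NK was at least 4.40-fold below B, and NKB exceeded NK by at least 4.97-fold, whereas NKB and B differed 1.13-fold.

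Ly86, which Cd180 needs to reach the surface in mice, was lower in NK than in B as Cd180 was, but did not follow it in NKB against B. Its transcript BC096414 (MM9, chr13:37437254-37510815) read 911 on B, 155 on NK and 301 on NKB, all above the level. It was 5.89-fold lower in NK than in B and 3.02-fold lower in NKB than in B. NKB was 1.95-fold above NK, just short of the threshold. This direction is not kept with the level at the 99th percentile, where NK was under a level of 401 and the floored log2 difference was -0.41. Against B, then, NKB was within 1.13-fold for the receptor and 3.02-fold lower for its partner; the difference between these 2 values has no replicate check.

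The adaptor Myd88 was the most even of the detected members. Transcript BC005591 (MM9, chr9:119245105-119249158) read 871 on B, 697 on NK and 697 on NKB. It was 1.25-fold lower in NK and in NKB than in B, and called in none of the 3 comparisons.

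The lipopolysaccharide receptor and the nucleic acid sensors were dim throughout. Tlr4 (BC029856; MM9, chr4:66488632-66502945) read 69.4 on B, 108 on NK and 95.7 on NKB. The 3 transcripts of Tlr7, a sensor of single-stranded RNA on the X chromosome, lay between 23.7 and 87.5 over all arrays. Of the 3 transcripts of Tlr3, which binds double-stranded RNA and signals without Myd88, 2 lay between 29.6 and 78.2. The third, AK171438 (MM9, chr8:46481018-46495734), read 35.3 on B, 45.4 on NK and 183 on NKB. That single NKB value was above the level for probe sets, and the 3 transcripts of the gene, which overlap in position, did not read alike. A value under the level does not show that a receptor is absent from the cells.

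**Figure D2:**
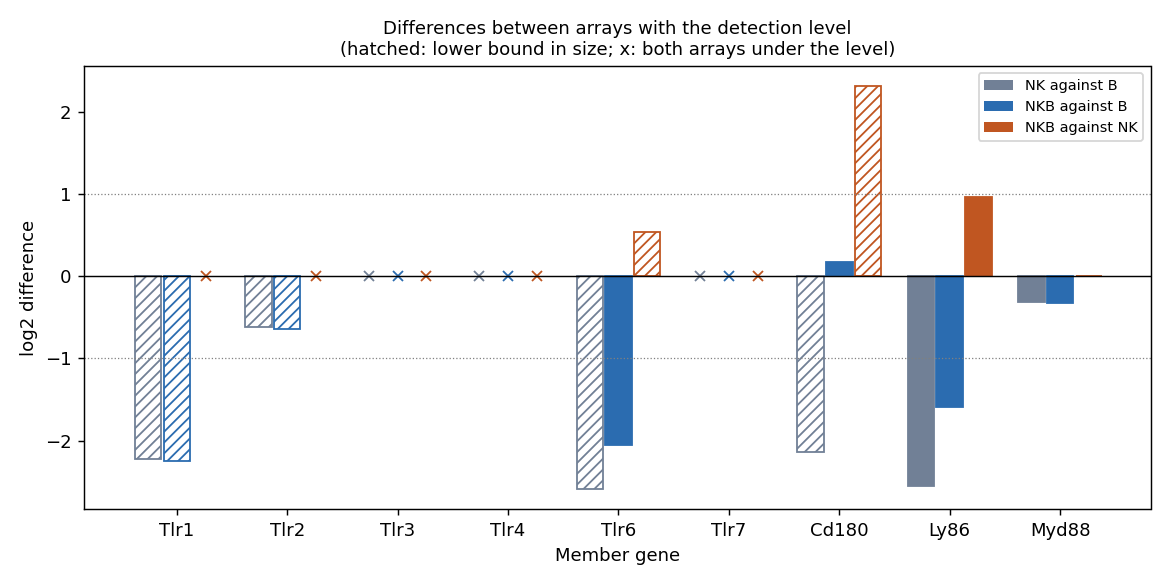
Log2 difference between arrays for each member after values under the detection level were set to it; solid bars are measured on both arrays, hatched bars are lower bounds in size, crosses mark members under the level on both arrays, and dotted lines mark 2-fold. Tlr1, Tlr6 and Ly86 lie below -1 for NKB against B, and Cd180 alone lies above 1 for NKB against NK.

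Counted over all 9 members, 4 were lower and 0 higher in NK than in B. Over all 24171 genes 2.97% were lower and 2.22% higher. For NKB against B, 3 members were lower and 0 higher, against 4.75% and 4.56% of all genes. For NKB against NK, 1 was higher and 0 lower, against 5.97% and 5.1% of all genes. Most genes were under the level on both arrays, so the shares are larger among genes detected on at least 1 of the arrays compared: 9.84% lower in NK than in B, 15.0% lower in NKB than in B and 17.5% higher in NKB than in NK. The members had been detected on at least 1 of the arrays compared for 6, 6 and 4 of 9. The median log2 difference over all 9 members was -0.62, -0.32 and -0.02 in the 3 comparisons, beside -0.12, -0.14 and -0.02 over all genes, the latter being the offsets between the detection levels. NKB against B and NKB against NK share the NKB array, and NK against B and NKB against B share the B array.

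The calls for Cd180 rest on where the level is drawn and on how its 2 probe sets are combined. With the level at the 99th percentile of the same receptor genes, Tlr1 was no longer called lower in NK than in B (log2 difference -0.68). Nor was Cd180 (-0.59), and Cd180 was no longer called higher in NKB than in NK (0.76). Cd180 was still averaged over both probe sets there, and the brighter one alone was not run at that percentile. With the brightest probe set of each gene and the level percentile unchanged, both Cd180 calls were kept (-3.40 and 3.61). Where every probe set had to pass, both were lost (-0.66 and 0.79). The 3 members lower in NKB than in B were called under every alternative run. Each of the 3 has 1 probe set, so the alternatives on probe sets could move only their detection level.

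In the authors' deposited table for NKB against B, Tlr6 is listed as 4.14-fold lower and Ly86 as 3.02-fold lower. In the authors' deposited table for NKB against NK, both Cd180 transcripts are listed as higher (10.2-fold and 19.4-fold), as is Tlr6 (4.31-fold), since there a dim value is not raised to a detection level. The authors' deposited tables do not list Tlr1, although its intensity fell 9.26-fold from B to NKB when no level is set. All 7217 listed transcripts of the first table and all 7877 of the second read at least 100 on at least 2 of the 3 arrays. None of the 7385 and 8100 other transcripts that differed 2-fold did so, and Tlr1 read over 100 on the B array alone.

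Genes with a like pattern over the 3 arrays were sought for Cd180 and Ly86 by the Euclidean distance between log2 values centred on each gene's mean, among genes with at least 2 probe sets and with values under the level set to it. Nearest to Cd180, of 3647 genes, were Hvcn1, a voltage-gated proton channel (distance 0.144), Mif4gd, a translation factor (0.192), and Ebf1, a transcription factor of the B lineage (0.243). Hvcn1 read 734 on B, 145 on NK and 774 on NKB, and Ebf1 read 581, 44.7 and 545. Nearest to Ly86, of 3648 genes, were Bach2, a transcriptional repressor of B cells (0.099), the immunoglobulin kappa transcripts filed under Igk (0.116) and Ncf1, a subunit of the phagocyte oxidase (0.235). Bach2 read 768 on B, 117 on NK and 280 on NKB. The NK value of Cd180 was at its level, so its neighbours follow in part from that setting: without a level, chosen after seeing the data, 1 of the 3 (Ebf1) was again among its 3 nearest genes, and 1 of 3 (Igk) for Ly86. With 3 arrays these distances describe the libraries and carry no test, and none was taken for Tlr7, which was under the level throughout.

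The rest of the pathway was followed in 6 lists holding 57 genes, of which 56 were on the array. In NKB against B, 5 of the 56 were higher and 5 lower, in NKB against NK 10 higher and 6 lower, and in NK against B 2 higher and 3 lower. Over all genes the shares were 4.56% and 4.75%, then 5.97% and 5.1%, then 2.22% and 2.97%. Among detected genes they were 14.4% and 15.0%, then 17.5% and 15.0%, then 7.37% and 9.84%. With 26 of the 56 detected on NKB, these counts are not read as particular to the pathway. All 5 Toll-like receptor genes outside the members (Tlr5, Tlr8, Tlr11, Tlr12 and Tlr13) were under the level on every array. So were Ly96 and Cd14, the partners of Tlr4, which are named after their values were seen.

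In the list of coreceptors, chaperones and trafficking genes, 4 of 10 were higher in NKB than in NK and 0 lower, and 1 was higher in NKB than in B. The list had 6 members detected on NKB. Of all genes detected on at least 1 of the arrays compared, 17.5% were called higher in NKB than in NK. Against B that share was 14.4%. Over all genes the shares higher were 5.97% against NK and 4.56% against B. Lower in NKB than in NK were 5.1% of all genes and 15.0% of detected genes. Hsp90b1, the endoplasmic reticulum chaperone gp96 on which most Toll-like receptors depend, read 689 on B, 561 on NK and 3555 on NKB. It was 5.16-fold higher in NKB than in B and 6.34-fold higher than in NK, with both probe sets in the same direction. Its cofactor Cnpy3 read 271 on B, 97.1 on NK and 462 on NKB and in NKB exceeded NK by at least 3.37-fold. Unc93b1, which escorts the nucleic acid sensors to endosomes, read 1599 on B, 367 on NK and 1165 on NKB. Unc93b1 was 4.36-fold lower in NK than in B and 3.17-fold higher in NKB than in NK, while NKB and B differed 1.37-fold. On 1 of its 3 probe sets NKB was 2.65-fold lower than B and only 1.28-fold above NK. The others put NKB 3.74-fold and 6.70-fold above NK.

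Among 8 adaptors and their regulators, 1 was higher in NKB than in B and 2 were higher than in NK. The shares higher were 4.56% and 5.97% over all genes, and 14.4% and 17.5% among detected genes. Tollip, an inhibitor of Irak kinases, read 148, 163 and 504 on B, NK and NKB and in NKB exceeded B by at least 3.38-fold. Pik3ap1, the B cell adaptor that links receptors to phosphoinositide 3-kinase, read 575, 407 and 1014 and was 2.49-fold higher in NKB than in NK.

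Of 15 kinases and ubiquitin ligases, NKB exceeded B for 2 and was below it for 1, and it exceeded NK for 3 and was below it for 0. The shares of all genes higher and lower were 4.56% and 4.75% against B, and 5.97% and 5.1% against NK. Among detected genes they were 14.4% and 15.0%, then 17.5% and 15.0%. Traf3, a ligase that acts in Toll-like receptor and BAFF receptor signalling, read 301 on B, 135 on NK and 801 on NKB. It was 2.66-fold higher in NKB than in B and at least 5.84-fold higher than in NK. Irak4, the kinase that Myd88 recruits first, exceeded B by at least 2.24-fold in NKB, but on 1 of its 2 probe sets alone: that transcript read 174, 127 and 1177, and the other 96.1, 91.4 and 94.8. Irak2 was at least 2.24-fold lower in NKB than in B, in the same direction on all 4 probe sets. Ikbkb, a kinase that releases NF-kappaB, was 2.07-fold higher in NKB than in NK, in that direction on 7 of its 8 probe sets.

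The transcription factors downstream went in both directions, with 1 of 8 higher and 3 lower in NKB, both against B and against NK. Over all genes the shares higher and lower were 4.56% and 4.75% against B, and 5.97% and 5.1% against NK. Among detected genes they were 14.4% and 15.0%, then 17.5% and 15.0%. Rel, an NF-kappaB subunit, read 548 on B, 148 on NK and 8866 on NKB on its single probe set. Rela, the subunit p65, was 2.67-fold lower in NKB than in B and 2.85-fold lower than in NK. Irf7, which drives type I interferon genes below Tlr7 and Tlr9, was at least 2.39-fold lower than in B and at least 2.80-fold lower than in NK, and Relb was at least 2.51-fold and 2.13-fold lower. Against NK the fall in Relb was uneven, at 1.21-fold, 1.47-fold and 6.51-fold on its 3 probe sets.

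Of 10 inducible targets, 1 was lower in NKB than in B and 3 were lower than in NK, with 0 higher in either. The shares lower were 4.75% and 5.1% over all genes, and 15.0% in both comparisons among detected genes. Nfkbia, the inhibitor that NF-kappaB induces, read 1084 on B, 1059 on NK and 271 on NKB and was 4.01-fold lower in NKB than in B. Tnfaip3, an ubiquitin-editing inhibitor of the pathway, in NK exceeded B by at least 5.04-fold and NKB by at least 5.55-fold. Ccl4, a chemokine, read 100 on B, 1930 on NK and 91.8 on NKB.

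**Figure D3:**
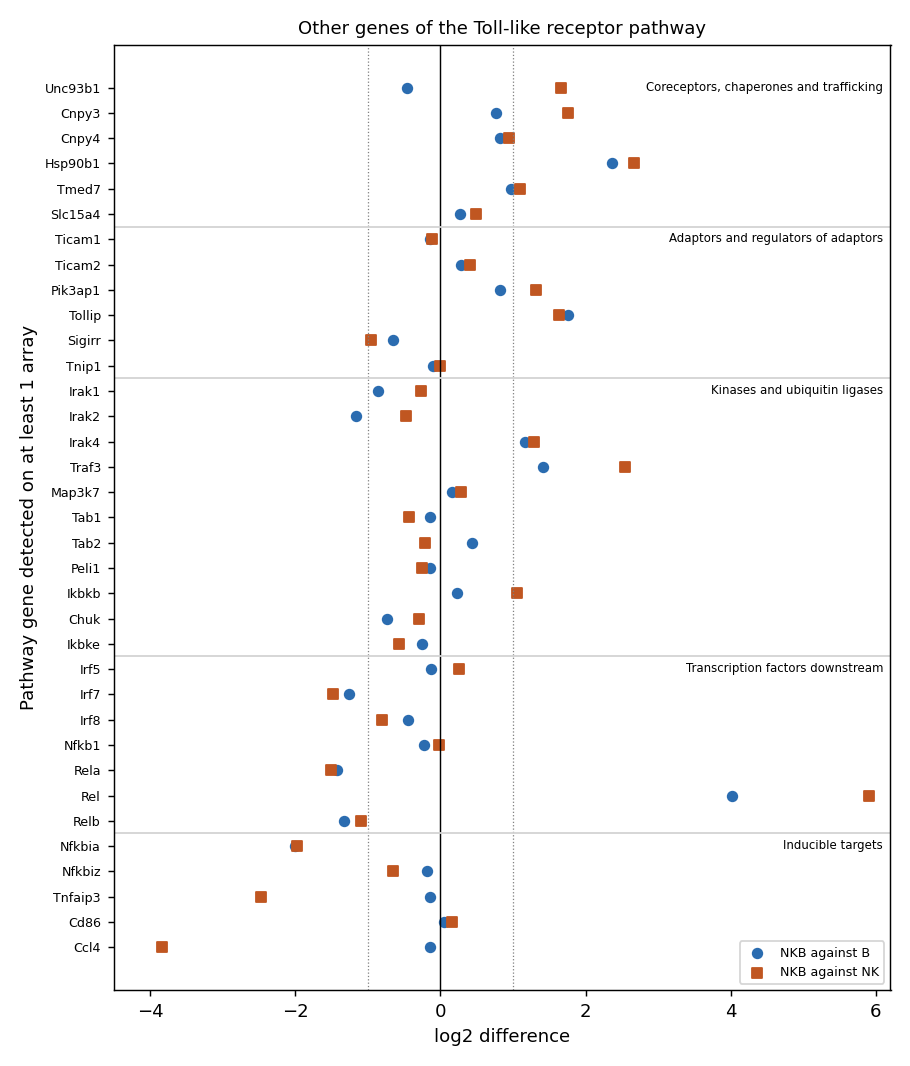
Log2 difference of NKB against B (circles) and against NK (squares) for the pathway genes detected on at least 1 array, in the order of their lists, with dotted lines at 2-fold and values under the detection level set to it. Hsp90b1 and Traf3 lie to the right for both comparisons, as does Rel at the far right, and Rela, Relb, Irf7 and Nfkbia lie to the left for both.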

How the data were processed

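Total RNA of 3 sorted populations was measured on 1 array each. The deposited values are linear intensities that the authors summarised per transcript with RMA (submitters' processing notes, no version named). Per the file headers, 44155 of 44170 transcripts have 3 probes and coordinates are on MM9. A series-wide table repeats these intensities (largest difference 0). The authors also deposited log2 ratios of 2 arrays for transcripts at least 2-fold different, per the file headers, with no test.

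Symbols were updated by gene identifier with GRCm38.p6, which held 39057 transcripts, and 2284 without a symbol were left out. Python 3.11.15, numpy 2.4.6 and pandas 2.3.3 were used, no further normalization was applied, and the steps were tested on simulated data. The precision is limited by the number of arrays. The members, lists, named genes (all members, up to 3 called genes per pathway list and comparison, and 3 nearest patterns) and the 8 alternatives were chosen with earlier results of these data known.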

Additional observations from a re-analysis of the deposited data

How the results depend on the processing

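Counts over the 9 members, higher and lower in 3 comparisons, were recomputed under 8 alternatives. The 3 members lower in NKB than in B stayed 3 under all 8, and the counts of 0 (higher in NK than in B, higher in NKB than in B, lower in NKB than in NK) stayed 0. A new quantile normalization, a shift of the arrays to equal medians, the brightest probe set of each gene and a threshold of 3-fold moved none of these counts. Part of this was fixed in advance. Tlr1, Tlr6 and Ly86 have 1 probe set each, so the alternatives on probe sets could move only their detection level. A count of 0 at 2-fold must also be 0 at 3-fold. The 4 members lower in NK than in B became 2 with the level at the 99th percentile and 3 where every probe set had to pass. The 1 member higher in NKB than in NK became 0 with the level at the 99th percentile and 0 where every probe set had to pass, because the dimmer Cd180 probe set stayed within 2-fold of the NK level (log2 difference 0.79, and -0.66 for NK against B). It became 2 with the level at the array median, which added Tlr6, and 3 with no level, which added Tlr6 and Tlr3. Of 128 values for single members, 119 kept their direction and side of the threshold, 5 fell under it, 2 passed it and 2 turned sign. Among the members with such values, Cd180 alone has more than 1 probe set. Both turns came for NKB against NK with the level at the 99th percentile, which was 401 on NK and 235 on NKB: Tlr6 went from 0.54 to -0.77 with both arrays under the level, and Ly86 from 0.96 to -0.41 with NK under it, so neither is a measured fall. No paired analysis was possible because each population has 1 array.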
